A study of Calluna vulgaris with 2 samples.

Results

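Ribosomal proteins of the cytosol were followed through the flower transcriptome of common heather (Calluna vulgaris), in the bud bloomer ‘Maria’ (bud) and in its wild type flowering offspring F1 (wt). ‘Maria’ is a bud bloomer of the diplocalyx type, whose flowers never open, form no stamens and carry a second whorl of sepals in the place of petals. F1 came from a cross of ‘Maria’ with the wild type flowering ‘Boskoop’, has open flowers and served as control. For each genotype, 1 cDNA library was made from young flowers. The plants were grown in the open, with shelter under glass for the cold season. There were no replicates, the number of plants behind a library is not given in the sources used here, and a genotype stands for its flower type. Ages and treatments of the plants are likewise not given.

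Contigs were taken as ribosomal proteins when the annotation of their number in Additional file 2 of the study named a 40S or 60S ribosomal protein. This rule found 42 of the 12058 contigs of the deposited table, 28 of the 60S subunit and 14 of the 40S subunit. They carried the names of 30 proteins, 20 of the large and 10 of the small subunit, and 1 contig per subunit was named without a protein number. Additional file 2 lists contigs that the study had selected because their read numbers differed between these libraries. The direction and size of the differences given below therefore chose the members and are a description without a test.

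The deposited table names neither flower type in its column heads, which read library 1 and library 2. The first was assigned to bud because the 9 contigs of Additional file 3 hold their read numbers in this order, all 9 of them, and none in the other. Additional file 2 heads the libraries the other way round, and each direction given here for a contig exchanges if that heading is right. What the study reports does not settle this. It found ribosome terms overrepresented among the differing genes of wt, which goes with that heading and against the direction given here. Its counts of contigs found in 1 flower type only also go with that heading. By the Audic-Claverie test described below, 168 of all contigs tested were higher in bud and 176 in wt. The study, too, had slightly more contigs preferentially expressed in wt than in bud, which goes with the order used here by a small margin. Its reads of PISTILLATA, a regulator of petal and stamen identity, go with the order used here. By qRT PCR, too, the study found PISTILLATA reduced in bud. Its read totals, larger for bud than for wt, also go with the order used here. Bud and wt below therefore stand for the columns so assigned. Of the 42 ribosomal protein contigs, 0 have in the table the read numbers printed beside them in Additional file 2, in either order, and none of them is among the contigs of Additional file 3. Annotation and reads were joined by contig number alone, a link that could not be checked for these contigs.

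The cytosolic ribosome of plants is built of a small 40S subunit, which reads the mRNA, and a large 60S subunit, which joins the amino acids and leads the new chain out through a tunnel. Each ribosomal protein normally enters a ribosome in a single copy, whereas plants hold several gene copies for most of them. Their transcripts are known to be abundant in young, growing tissue such as meristems and flower buds. Because of the gene copies, reads of near-identical copies can be split or merged by an assembly, so values per contig are less certain than values per protein.

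The libraries held 193454 reads in bud and 157245 reads in wt over all contigs, and read shares are given per 10000. Where a pair of read numbers is given, the number in bud comes before that in wt, and a ratio is the share in bud divided by that in wt. A contig with 0 reads was set to 3 reads for a ratio, a floor of 0.155 per 10000 in bud and 0.191 in wt. Such a ratio is given as a value at the floor. It is not a lower limit, which is the start of the interval given with it. Intervals are exact 95% intervals of the ratio and cover counting error only. They leave out the spread between plants, which 1 library cannot show, and they take reads as independent, although the cDNA had been amplified by PCR. In whole flowers, fewer cells of a type and less RNA per cell cannot be told apart. Flowers of wt held stamens and those of bud did not. The stamen and pollen markers went both ways: PISTILLATA (contig07420) had 0 bud reads and 20 wt reads, a pollen-specific protein c13-like (contig01586) 67 and 0, and a TAP1 precursor-like protein (contig03435) 381 and 140. The pollen-specific and TAP1 contigs were thus higher in bud, whose flowers form no stamens. Their names rest on the same unchecked link by contig number, and all these directions rest on the assigned order of columns. The part of stamens in the values below was not tested.

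The ribosomal protein contigs as a group had a larger share in the bud library, and the listed contigs of both subunits differed by nearly the same factor. The 42 contigs had 6928 bud reads and 2496 wt reads, 358 against 159 per 10000, a ratio of 2.26 (2.15 to 2.36). The 60S contigs had 4755 and 1718 reads, a ratio of 2.25 (2.13 to 2.38). The 40S contigs had 2173 and 778 reads, a ratio of 2.27 (2.09 to 2.47). Among these contigs there were 2.19 reads of 60S contigs per read of a 40S contig in bud and 2.21 in wt. These values cannot show the balance between whole subunits. The contigs had been chosen on their ratios, and ribosomal protein contigs outside Additional file 2 have no annotation here. Reads of 60S contigs made up 68.6% of the ribosomal protein reads in bud and 68.8% in wt. With the 3 contigs of S29 left out, a choice made after the values were seen, the 40S ratio was 2.08.

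By contig, 38 of the 42 had the higher share in bud and 4 in wt, compared with 51.2% of the 11900 contigs tested that were higher in bud. Their median log2 ratio was 1.27, and that of all contigs tested 0.02. Contigs with at least as many reads as the member with fewest reads (29) lay between them, with a median log2 ratio of 0.21 and 1487 of 2539 higher in bud. The other 153 contigs annotated in Additional file 2 had a median log2 ratio of -1.03, and 72 of them were higher in bud. By the two-sided Audic-Claverie test with Bonferroni correction at 0.01, 33 members were called higher in bud, where 1.41% of all contigs tested were, and 4 higher in wt, where 1.48% were. Both directions together gave 37 members and 2.89% of all contigs tested. These counts follow from how the members were chosen, and the test compares 2 libraries, not the flower types. The calls higher in bud fell to 15, with 4 in wt, when the reads in contigs of the separate assemblies were used as library totals. With plants assumed to vary by a coefficient of variation of 0.2, 6 and 4 calls were left, and with 0.4 there were 0 and 0.

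The listed ribosomal protein contigs were among the most read contigs of the table. In the order of contigs by reads of both libraries, their best rank was 20, their median rank 217 and their last rank 2427, with 10 among the first 100 and 36 among the first 1000. This follows in part from the choice, since contigs with few reads could hardly enter the study's list. The median number of reads was 195.5 for the members, 73 for the other 153 annotated contigs and 13 for all contigs tested. Of the 42 contigs, 33 had more than 3 reads in each library. Their ratios ran from 1.498 to 5.49, with a median of 2.41, and all 33 were higher in bud. The interval of 25 of these 33 contigs included the summed ratio of 2.26, that of 5 lay above it and that of 3 below it. The 5 above were S15 (contig01420), S23, S26, a contig of L29 (contig01315) and a contig of L3 (contig03617). The 3 below were S28, S30 and a contig of L38 (contig01630). These counts are not a test of a shared factor. The summed ratio is made of the same contigs, and their list had been selected for unequal shares. The remaining 9 contigs had at most 3 reads in a library, 5 of them higher in bud and 4 in wt. Among all contigs tested, most of them with far fewer reads, 42.8% had at most 3 reads in a library. Among the 2539 contigs with at least 29 reads it was 138, and among the other 153 annotated contigs 68.

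**Figure D1:**
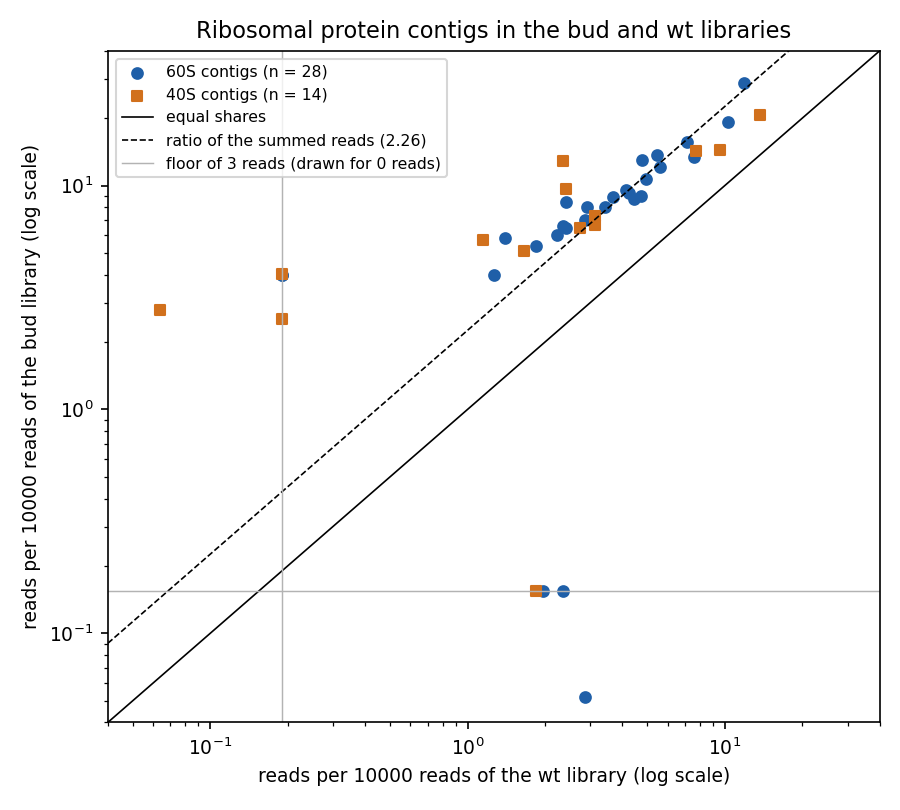
Reads per 10000 of each ribosomal protein contig in the wt library (horizontal) and in the bud library (vertical), both on a log scale, with 60S contigs as circles and 40S contigs as squares. Most of the 42 points follow the dashed line of the summed ratio of 2.26 above the solid line of equal shares, and the 9 contigs with at most 3 reads in a library lie apart, on or beyond the grey lines drawn at the floor of 3 reads.

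When the contigs of each protein were summed, all 32 entries (30 proteins and the unnumbered contig of each subunit) had the higher share in bud. The ratio was at least 2 for 24 of them and under 2 for 8. The lowest was that of L4, at 1.15, whose interval of 0.848 to 1.57 includes equal shares. The 24 entries with a single contig, the unnumbered ones included, had together 4519 bud reads and 1696 wt reads, a ratio of 2.17 (2.05 to 2.29). The 8 proteins with several contigs had 2409 and 800 reads, a ratio of 2.45 (2.26 to 2.65). L38 had the most reads in both libraries, 42.2 per 10000 in bud and 19.5 in wt. The first 8 places were held by the same proteins in each library, L38, L6, S30, L3, L39, L5, S28 and S4, though not in the same order. L4 stood in place 28 in bud and 13 in wt, and S29 in place 15 and 31. Read numbers of different proteins are not levels per length, because contig lengths were not used here.

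**Figure D2:**
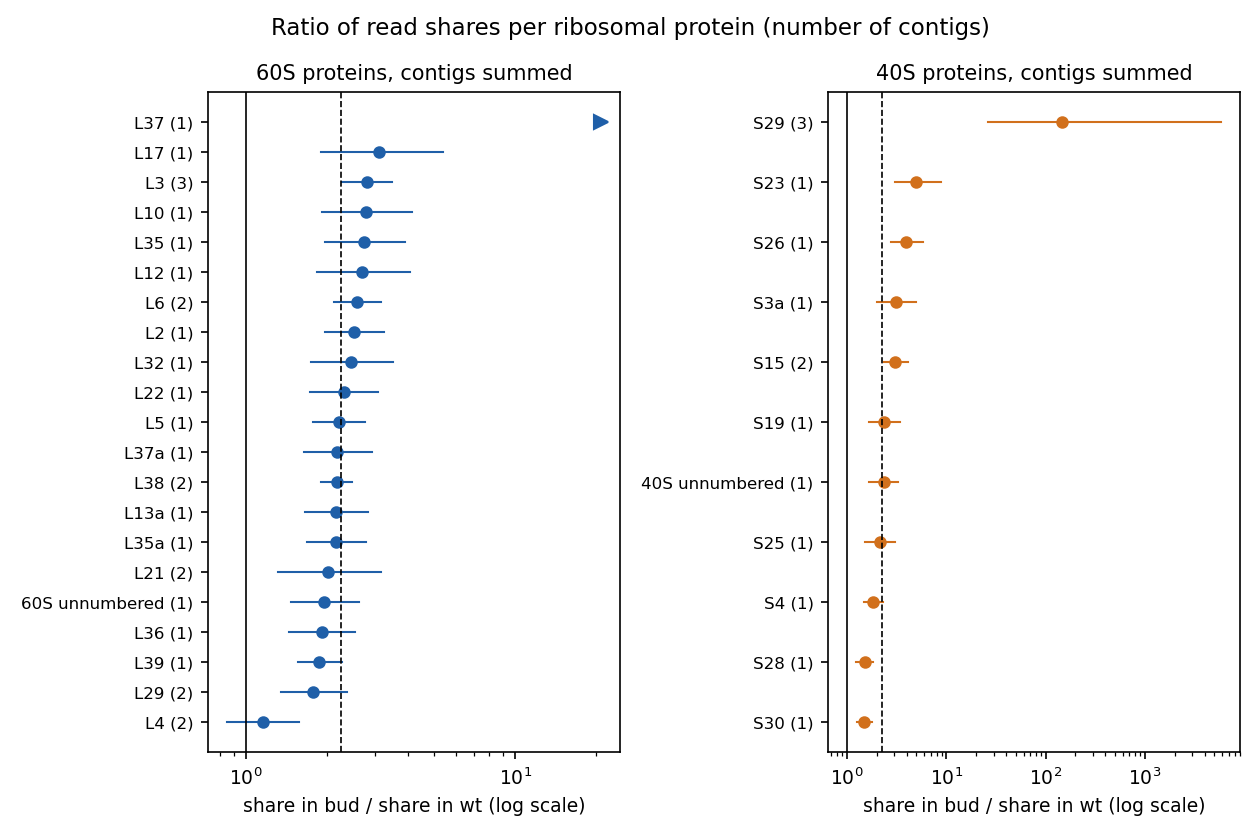
Ratio of the read share in bud to that in wt for each 60S protein (left) and 40S protein (right) on log axes, with contigs of a protein summed, their number in brackets, and bars for exact 95% counting intervals. The triangle marks the ratio of L37 at the floor, with 0 reads in wt, the solid line equal shares and the dashed line the summed ratio of 2.26. All points lie right of equal shares, L4 nearest to it and S29 farthest from it.

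Proteins of the peptidyl transferase centre and the exit tunnel, where the chain is made and leaves the ribosome, were represented by 10 contigs of 7 proteins. Together they had 1496 bud and 539 wt reads, a ratio of 2.26 (2.04 to 2.49), equal to that of all ribosomal protein contigs to 2 decimals. L2, which helps to shape the catalytic centre, had 266 bud reads and 86 wt reads, a ratio of 2.51 (1.96 to 3.24). L3, which reaches towards the same centre, had 393 and 114 reads over its 3 contigs, a ratio of 2.80 (2.27 to 3.48). The intervals of both lay above equal shares, as did those of every other entry except L4. This follows in part from the choice of contigs with unequal shares. L10, which joins the 60S subunit late in its assembly, had 127 and 37 reads, a ratio of 2.79. L17, whose extension forms part of the narrowest stretch of the tunnel, had 77 and 20 reads, a ratio of 3.13 (1.89 to 5.405). This was the member called higher in bud that lay closest to the threshold. L35, which stands at the rim of the tunnel exit, had 155 and 46 reads, a ratio of 2.74, and L39, a very small protein that lines the tunnel, 373 and 162, a ratio of 1.87 (1.55 to 2.26).

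L4, the other protein of the tunnel constriction, stood apart from this group. Its contig00438 had 104 bud reads and 29 wt reads, a ratio of 2.91 (1.92 to 4.56), whereas contig00440 had 1 and 45, a ratio of 55.4 in favour of wt with an interval of 9.44 to 2235. The contigs of L4 thus went in opposite directions. Their sum of 105 and 74 reads differed less between the libraries than that of any other of the 32 entries. With the reads in contigs of the separate assemblies as library totals its ratio was 0.926, so its direction depended on the library totals used.

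The proteins L5, L12 and L21 were grouped for their places at the 5S rRNA or at the stalk base. Translation factors bind in the region of the stalk base. L5, which carries the 5S rRNA into the large subunit, had 304 bud reads and 112 wt reads, a ratio of 2.21 (1.77 to 2.77). L12 of the stalk base had 116 and 35 reads, a ratio of 2.69. L21, which lies near the 5S rRNA, was found on a pair of contigs with neighbouring numbers. Contig01726 had 77 bud reads and 0 wt reads, 20.9-fold higher in bud at the floor (interval from 16.6 upwards). Contig01727 had 0 and 31 reads, 12.7-fold higher in wt at the floor (interval from 9.74 upwards). Each contig was read in 1 library only, and the protein as a whole, with 77 and 31 reads, had a ratio of 2.02 (1.31 to 3.17), close to that of the group.

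The proteins that hold a zinc ion had the largest summed ratio of the groups. Their 6 contigs had 624 bud reads and 106 wt reads, a ratio of 4.78 (3.89 to 5.94). Much of this value rested on S29 and L37. Without S29 it was 3.43, and without both it was 2.83 (2.27 to 3.55). S29, a small protein in the head of the 40S subunit, had 3 contigs, all read almost only in bud: contig06238 had 78 bud reads and 0 wt reads, contig06808 had 49 and 0, and contig08472 had 54 and 1. Summed to 181 and 1 reads, the share in bud was 147 times that in wt, with an interval from 26.1 to 5843. No contig annotated as S29 was found with more than 1 read in wt, and contigs outside Additional file 2 have no annotation here, so reads of S29 on other contigs would not have been seen. Counted with its 6 neighbours by contig number, which have no annotation, S29 had 224 and 34 reads, a ratio of 5.36 (3.72 to 7.93). L37 (contig01309) had 77 bud reads and 0 wt reads, 20.9-fold higher in bud at the floor (interval from 16.6 upwards). The same limit holds for L37, which with its 2 neighbours by contig number had 176 and 71 reads, a ratio of 2.01 (1.52 to 2.69). The sizes of both ratios thus depended on whether these neighbours were counted. L37a, a different protein despite its name, was close to the whole group at 180 and 67 reads, a ratio of 2.18 (1.64 to 2.94). S26, which lies where the mRNA leaves the 40S subunit, had 186 and 38 reads, a ratio of 3.98 (2.79 to 5.80).

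The 40S proteins of the decoding site, the head and the mRNA channel held both the lowest and the highest ratio among the 33 contigs with more than 3 reads in each library. Together their 7 contigs had 1261 bud reads and 519 wt reads, a ratio of 1.97 (1.78 to 2.19). S29 of the head and S26 of the mRNA exit were counted with the zinc-binding proteins and not here. Both had higher ratios, so this sum depends on the grouping. S23, which watches over the accuracy of decoding, had 111 and 18 reads, a ratio of 5.01 (3.03 to 8.77). S15, in the head of the subunit close to the tRNAs, had a contig with 250 and 37 reads (contig01420), a ratio of 5.49 (3.88 to 7.98). A neighbouring contig of S15 (contig01421) had 0 and 29 reads, 11.9-fold higher in wt at the floor (interval from 9.07 upwards). As for L21, the contigs differed in direction, and their sum of 250 and 66 reads gave a lower ratio of 3.08 (2.34 to 4.10). S3a had 99 and 26 reads, a ratio of 3.10 (1.99 to 4.97), and S19, needed for the maturation of the 40S subunit in yeast and human cells, 125 and 43, a ratio of 2.36. The lowest ratios were those of S28 and S30. S28, beside S26 at the mRNA exit, had 278 and 150 reads, a ratio of 1.51 (1.23 to 1.85). S30, a small basic protein at the mRNA entry side, had 398 and 216 reads, a ratio of 1.498 (1.27 to 1.78). Neither was called, although both were among the most read members, and their intervals lie below the summed ratio.

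Of the remaining 40S entries, S4 of the subunit body had 275 bud reads and 122 wt reads, a ratio of 1.83 (1.48 to 2.29). S25, needed for initiation at internal ribosome entry sites in yeast and mammals, had 129 and 49, a ratio of 2.14 (1.53 to 3.04), and was not called. The contig without a protein number (contig04604) had 141 and 49, a ratio of 2.34. All 3 were thus near the summed ratio, and together they gave 2.01 (1.72 to 2.37).

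The remaining 12 contigs of the 60S subunit, of 9 entries, had 2505 bud reads and 934 wt reads, a ratio of 2.18 (2.02 to 2.35). L38, a small protein that in the mouse is needed for the translation of a set of Hox mRNAs, had the most reads. Its contig04431 had 556 and 187 reads and contig01630 260 and 119, which are ratios of 2.42 (2.04 to 2.87) and 1.78 (1.42 to 2.23). L6 had 251 and 75 reads on contig00966 and 172 and 58 on contig03053, which are ratios of 2.72 and 2.41. The contigs of L38 and those of L6 thus each went in the same direction with overlapping intervals. L35a with 233 and 88 reads, L13a with 207 and 78, L22 with 184 and 65 and L32 with 136 and 45 had ratios between 2.15 and 2.46. L36, with 174 and 74 reads and a ratio of 1.91 (1.45 to 2.54), was not called. The 60S contig without a protein number (contig01149) had 168 and 70 reads, a ratio of 1.95 (1.47 to 2.62), and was the uncalled member closest to the threshold.

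L29, a short and very basic protein, resembled S15. Contig01315 had 164 bud reads and 38 wt reads, a ratio of 3.51 (2.45 to 5.13). Its neighbour contig01316 had 0 and 37 reads, 15.2-fold higher in wt at the floor (interval from 11.7 upwards). Their sum of 164 and 75 gave a ratio of 1.78 (1.34 to 2.37).

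Proteins whose families occur in bacteria, archaea and eukaryotes were compared with those found in archaea and eukaryotes or in eukaryotes alone. The 18 contigs of the first kind had 2292 bud reads and 687 wt reads, a ratio of 2.71 (2.49 to 2.96), and 2.501 (2.29 to 2.73) without S29. The 22 contigs of the second kind had 4327 and 1690 reads, a ratio of 2.08 (1.97 to 2.20). The counting intervals did not overlap with or without S29. Both sums leave out the neighbours by contig number, with which the ratio of all members was 1.93. The size of this difference may thus depend on whether neighbours are counted. This difference between read sums of the same libraries was not tested, since the members had been chosen on their ratios.

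**Figure D3:**
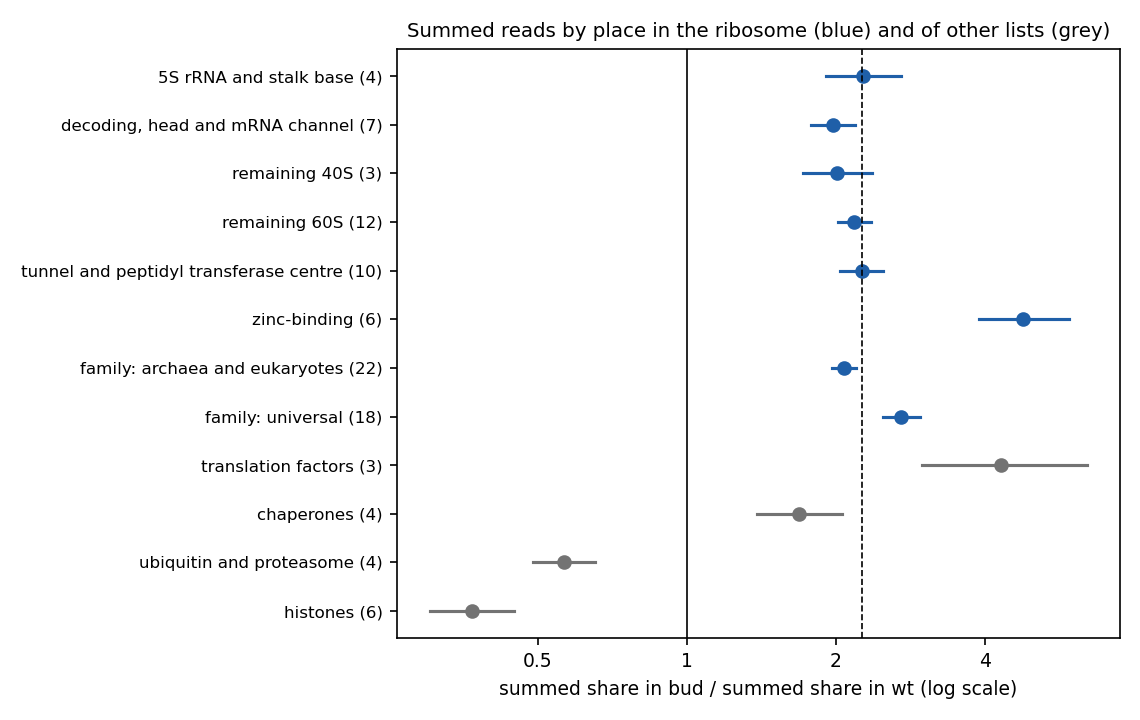
Ratio of summed read shares, bud over wt, on a log axis for ribosomal proteins by their place in the ribosome or family (blue) and for other lists of annotated contigs (grey), with the number of contigs in brackets and bars for exact 95% counting intervals. The solid line marks equal shares and the dashed line the summed ratio of 2.26; the zinc-binding proteins stand highest at 4.78 and the histones lowest at 0.368.

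Several contigs, 18 in all, were found for each of 8 proteins. The contigs of L3, L6, L38 and S29 were higher in bud without exception, whereas the contigs of the other 4, L4, L21, L29 and S15, disagreed in direction. The 4 members with the higher share in wt were exactly the contigs contig00440, contig01316, contig01421 and contig01727 of these proteins. In L21, L29 and S15 the contigs that disagreed carried successive numbers, and in L4 the numbers were separated by 1 contig without annotation, contig00439, with 160 bud reads and 108 wt reads. Within L3, contig03239 had 155 and 54 reads, contig03335 125 and 38 and contig03617 113 and 22. All of them were higher in bud, with ratios of 2.33, 2.67 and 4.17. Sequences were not compared, so it is not known here whether contigs of a protein stem from 1 gene.

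**Figure D4:**
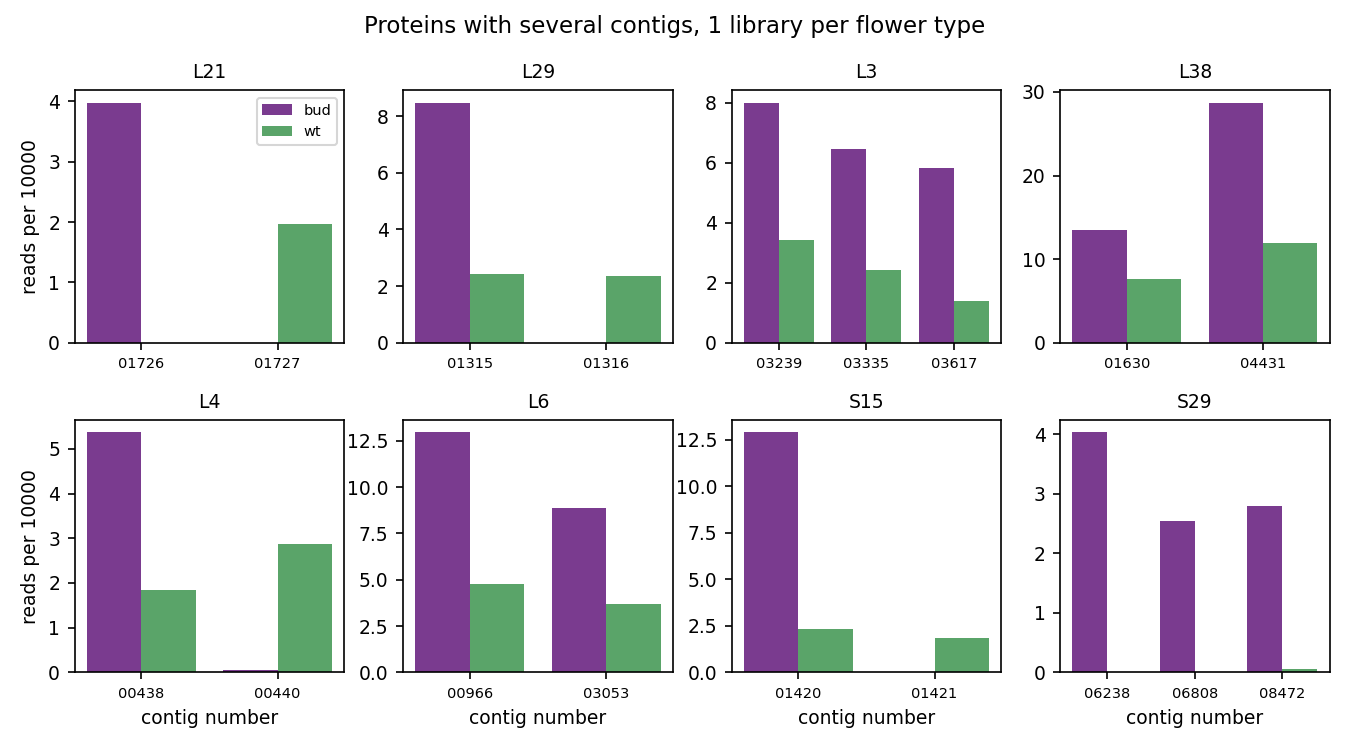
Reads per 10000 of the bud library (purple) and the wt library (green) for each contig of the 8 proteins with several contigs, with 1 panel per protein and a scale of its own in each panel. In L21, L29 and S15 a contig was read only in wt, in L4 a contig had 1 read in bud and 45 in wt, whereas all contigs of L3, L6, L38 and S29 had more reads per 10000 in bud.

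Contigs without annotation whose number was next to that of a member were looked at in the same way. There were 75 of them, with 2753 bud reads and 1586 wt reads, a ratio of 1.41 (1.33 to 1.502). Their median log2 ratio was 0.34, and 51 of them were higher in bud and 24 in wt. They thus lay between the members and all contigs tested. The Audic-Claverie test called 4 of them for bud and 3 for wt. These 7 were named after their values were seen. Contig00967, next to L6, had 232 bud reads and 43 wt reads, contig01629, next to L38, had 320 and 159, and contig03378, next to L32, had 97 and 0. Contig01263 of S23 was flanked by contig01262 with 0 and 28 reads and contig01264 with 70 and 0, each found in 1 library only. Contig01121, next to L10, had 0 and 20 reads, and contig01150, next to the unnumbered 60S contig, 0 and 23. Whether neighbours belong to the same transcripts was not tested. When they were counted with the members, the summed ratio was 1.93 and the median log2 ratio 0.83, and all 32 entries still had the higher share in bud.

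Other contigs of protein synthesis and turnover, from lists by annotation in the same additional file, did not all follow the ribosomal proteins. The 3 contigs of translation factors were higher in bud. Elongation factor 1-beta (contig01367), which recharges the factor that brings tRNAs to the ribosome, had 46 bud reads and 2 wt reads, and the gamma subunit of the same complex (contig01594) had 37 and 1. Both were called. Basic transcription factor 3 (contig03770), related to a protein that meets the new chain at the ribosome, had 98 and 31 reads, a ratio of 2.57 (1.70 to 3.98), and was not called. A contig annotated only as protein (contig01029), for which the study lists a 60S acidic ribosomal protein as its Arabidopsis counterpart, had 131 and 29 reads, a ratio of 3.67 (2.44 to 5.70). It was called higher in bud and is not counted among the members.

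Of the 4 chaperone contigs, 3 were called higher in bud: a small heat shock protein (contig02039) with 96 and 27 reads, a DnaJ homologue (contig04035) with 73 and 17 and, with 109 and 29, a peptidyl-prolyl isomerase (contig04872). Heat shock protein 70 (contig05034), with 39 bud reads and 80 wt reads, was not called. The 4 contigs of ubiquitin and the proteasome were split, 2 called in each direction, and their summed reads were higher in wt, with 322 in bud and 463 in wt. The 6 histone contigs, whose transcripts are known to be abundant in dividing cells, had 155 bud reads and 342 wt reads, a ratio of 0.368 (0.303 to 0.447), with 2 called higher in bud and 4 in wt. Histones and ribosomal proteins thus went in opposite directions as sums. All of these contigs come from the list that the study selected on the same libraries.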

How the data were processed

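From young flowers, 1 tagged 3’-fragment cDNA library of bud and 1 of wt had been sequenced by pyrosequencing. For their expression analysis, the authors used SeqClean against plastid, endophyte, mitochondrial and ribosomal RNA sequences. A common backbone was built from both libraries in GS DeNovoAssembler (Newbler) 2.5.3, and the flower type specific reads were then mapped back. The deposited values used here are counts of reads for every contig of that backbone, without normalisation by the authors. Further columns hold shares per 10000 reads and p-values of the authors' comparison, none of which was used.

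Repeated entries (3) were dropped, and reads over 12058 contigs served as library totals. Contigs were tested if they held more than 2 reads, which left out 158. The two-sided tail of the Audic-Claverie distribution, conditional on bud, was Bonferroni corrected for 11900 contigs, with calls at 0.01. The code was tested on simulated data. Intervals of ratios are exact binomial ones at 95%. Contigs with the same protein number were summed and proteins grouped by their textbook place in the ribosome. Values are given for the proteins with most reads in each subunit, those with several contigs, those with at most 3 reads in a library or higher in wt, those nearest to the threshold and those not called. Other members were added to describe their groups. Members and lists were chosen with earlier results of these data known.

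Alternatives were library totals from the separate assemblies (reads in contigs, or assembled reads), TMM, DESeq2 size factors, totals without the 10 most read contigs or without the members, Fisher's exact test, Benjamini-Hochberg adjustment, other read minimums, the exact test of edgeR under an assumed coefficient of variation (0.2 and 0.4), and other choices of contigs. S29 was left out as an alternative chosen after seeing the data. Software comprised Python 3.11.15, numpy 2.4.6, pandas 2.3.3, scipy 1.17.1, matplotlib 3.10.9, R 4.3.3, edgeR 4.0.16 and DESeq2 1.42.0.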

Additional observations from a re-analysis of the deposited data

How the results depend on the processing

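No paired analysis was possible because each flower type has 1 library. With the reads in contigs of the separate assemblies as library totals, the ratio was 1.81 for all ribosomal protein contigs, 1.81 for the 60S and 1.82 for the 40S, the median log2 ratio was 0.95 and 15 contigs were called higher in bud. L4 turned to 0.926. With assembled reads these were 2.04, 2.03, 2.05 and 1.12. These totals move the median log2 ratio of all contigs tested by -0.32 and -0.15, and every ratio by the same factor, by their construction. With neighbouring contigs included, the ratios were 1.93, 1.89 and 2.05, with a median log2 ratio of 0.83. Without S29, an alternative chosen after seeing the data, the 40S ratio was 2.08. Fewer calls under an assumed variation follow from the wider spread that is put in. Why the totals of the separate assemblies differ from those of the table was not tested. With an assumed coefficient of variation of 0.2, 6 contigs were called higher in bud (L37, contig01420 of S15, contig01726 of L21 and the 3 of S29) and 4 in wt, and with 0.4 0 and 0 were. Under the other library totals, tests, adjustments, read minimums and sets of contigs, the group ratios stayed within their counting intervals and the counts within 1.5 times. Of 192 ratios of single proteins under 6 totals, 184 stayed within their interval, 7 left it and 1, that of L4, was reversed. Depth limits what contigs read in 1 library can show: the floor set for 0 reads was 0.155 per 10000 in bud and 0.191 in wt.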
